A study of Homo sapiens with 21 samples.

Results

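The genes described here encode the subunits of integrins and the chains of laminins, chosen by symbol: integrin alpha and beta subunits and laminin alpha, beta and gamma chains with a value above 0 in at least 3 of the 21 libraries. The rule found 37 of the 16383 genes in the deposited table, made up of 18 integrin alpha subunits, 8 integrin beta subunits and 11 laminin chains. Of these, 29 had a normalised read count of at least 10 in at least 3 libraries and were tested (13 alpha subunits, 6 beta subunits and 10 laminin chains). The other 8, ITGA2B, ITGAD, ITGAL, ITGAM, ITGAX, ITGB2, ITGB6 and LAMC3, had at most 12 reads in any library and were not tested. LAMA1 was not analysed here.

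The cells were IMR90, a diploid fibroblast line from human lung, and their poly(A) RNA was sequenced in 7 groups of 3 libraries. The proliferating group was untreated. The other 6 groups were made senescent by irradiation, received siRNA (5 nM) on day 4 and again on day 7, and were harvested on day 10. Their names come from the siRNA: NT3 and NT4 are non-targeting controls (so numbered in the sample titles, and 1 and 2 in the design text of the series), CCND1, CDK4 and CDK6 knockdown each had siRNA to that gene, and the dual knockdown had siRNA to both kinases. CCND1 encodes cyclin D1, which pairs with the kinases CDK4 and CDK6 to drive cells out of G1. All irradiated groups were also transfected and the proliferating group received neither treatment, so irradiation and transfection cannot be told apart. The labels name the knockdowns by gene, give no siRNA sequence and name a single cell line, and nothing in them says that the 3 libraries of a group came from separate cultures, so p-values measure only the spread between libraries, which may be technical.

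Integrins are transmembrane receptors made of 1 alpha and 1 beta subunit that tie the extracellular matrix to the actin cytoskeleton and signal through focal adhesions. The alpha subunit largely sets the ligand: collagens for ITGA1, ITGA2, ITGA10 and ITGA11, laminins for ITGA3, ITGA6 and ITGA7, and proteins with an RGD motif such as fibronectin and vitronectin for ITGA5, ITGA8 and ITGAV. ITGB1 pairs with most of these alpha subunits, whereas ITGB3, ITGB5, ITGB6 and ITGB8 pair with ITGAV. Laminins are cross-shaped trimers of an alpha, a beta and a gamma chain, the main glycoproteins of basement membranes, and are assembled in set combinations, such as LAMA4 with LAMB1 and LAMC1.

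Read totals over the table ran from 12892442 to 21822152 a library, and no pair of libraries within a group was identical. The siRNAs lowered their targets in every library of the groups named for them: CCND1 was at 11.8% of the control mean, CDK4 at 8.67% (9.41% in dual knockdown) and CDK6 at 16.4% (20.6% in dual knockdown), each with an exact two-sided permutation p of 0.0119, the smallest that 84 splits of 3 against 6 libraries can give. All 12 fibroblast markers were present, and PTPRC, KRT5, KRT14, CDH5, EMCN and MYH11, which define leukocytes, basal epithelium, endothelium and smooth muscle, had group means from 0 to 5.87. Of the other leukocyte markers, CD68 had group means of 668 (proliferating) to 1523 (CDK4 knockdown), CD14 of 3.76 (proliferating) to 29.2 (NT4), SPI1 of 6.11 (proliferating) to 27.6 (NT3) and CSF1R of 5.00 (dual knockdown) to 24.5 (NT4). The 8 contractile genes of the smooth muscle list differed between groups. Their summed level was 39103 to 40095 in proliferating cells, 21371 to 26247 in NT3, 25665 to 29595 in NT4 and 25444 to 28302 in CDK4 knockdown, against 45398 to 53374 over CCND1, CDK6 and dual knockdown. The epithelial list summed to 345 to 485 in NT3, NT4 and CDK4 knockdown and to 539 to 651 in those other 3 knockdowns, mostly from KRT19, and TEK led the endothelial list at group means of 1809 to 4270. Of the other epithelial markers, EPCAM had group means of 14.2 to 37.2, CLDN4 of 18.6 to 60.6 and CLDN7 of 28.7 to 56.2. Among endothelial markers, VWF had group means of 3.41 to 19.3, KDR of 0.646 to 14.4, TIE1 of 4.21 to 13.1 and PECAM1 of 3.25 to 11.3. The part of these genes in the results on integrins and laminins was not tested.

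The library named NT3 replicate 3 stood apart from the others of its group. It was the lowest of the 3 NT3 libraries at 26 of the 29 tested members, with a median log2 difference of -0.48 from the other NT3 libraries, where all tested genes had a median of -0.0048. In that library the difference fell with the length of the gene: with genes split into 4 equal classes of rising exon length, the medians were 0.30, 0.037, -0.10 and -0.29, and members are long, with a median of 8270 exon bases against 5529 for all genes. Within the second to the fourth class the members had medians of -0.79, -0.29 and -0.63 (2, 13 and 14 members), and the first held no member. Its part in the NT3 results was not tested further, and counts of members called against NT3, or not overlapping it, are given with and without it. NT3 replicate 3 also enters the shared estimate of spread behind the p-values of contrasts that do not involve NT3. Counts against NT4 alone and between knockdowns are given only with it, except for the closing fits of the compared knockdowns alone. In the plot of each library against the others of its group, no other library shifts the members as far.

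**Figure D1:**
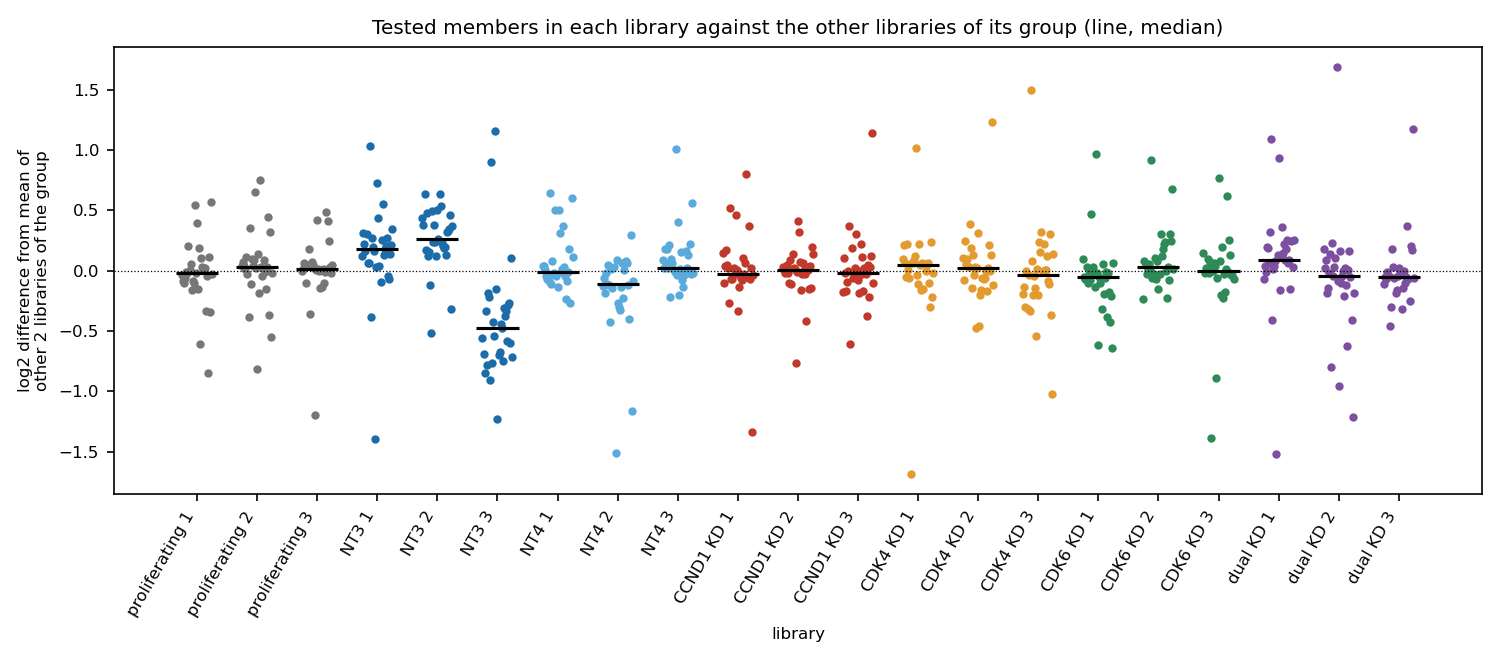
Log2 difference of each tested member from the mean of the other 2 libraries of its group (y axis), by library (x axis), with 1 point per gene and a line at the median. The members of NT3 replicate 3 centre on -0.48, and the other 20 medians lie between -0.11 and 0.26.

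Levels of different genes were set side by side only per kb of exon, with every base of any annotated exon of the gene counted. That length was 18592 bases for LAMB1 and 26419 for LAMA2 but 6865 for LAMB2, so the order of genes depends on the annotation. In proliferating cells ITGB1 was the highest member at 3087 ± 110.1 normalised counts per kb (SD, n = 3), followed by LAMC1 at 1839 ± 35.8 and ITGA5 at 1371 ± 27.3. These encode the common beta subunit, the common laminin gamma chain and the alpha subunit of the fibronectin receptor. ITGB5 (739 ± 7.14), LAMB2 (648 ± 5.41), ITGA2 (638 ± 25.6) and ITGA3 (604 ± 16.2) came next, and LAMB2 and ITGA2 did not differ beyond their spread. The laminin alpha chains were far below their beta and gamma partners: LAMA4 reached 99.3 ± 5.49 per kb, LAMA5 14.7 ± 0.288, LAMA2 9.69 ± 0.843 and LAMA3 1.43 ± 0.496. Subunits known from leukocytes and platelets (ITGAD, ITGAL, ITGAM, ITGAX, ITGB2 and ITGA2B) stayed at or below 1.51 ± 0.917 per kb in every group, ITGAM in NT3 being the highest. ITGAE, the alpha subunit of the lymphocyte receptor for E-cadherin, was an exception at 60.2 ± 2.58 per kb, and 7.65% of its exon bases overlap other genes.

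**Figure D2:**
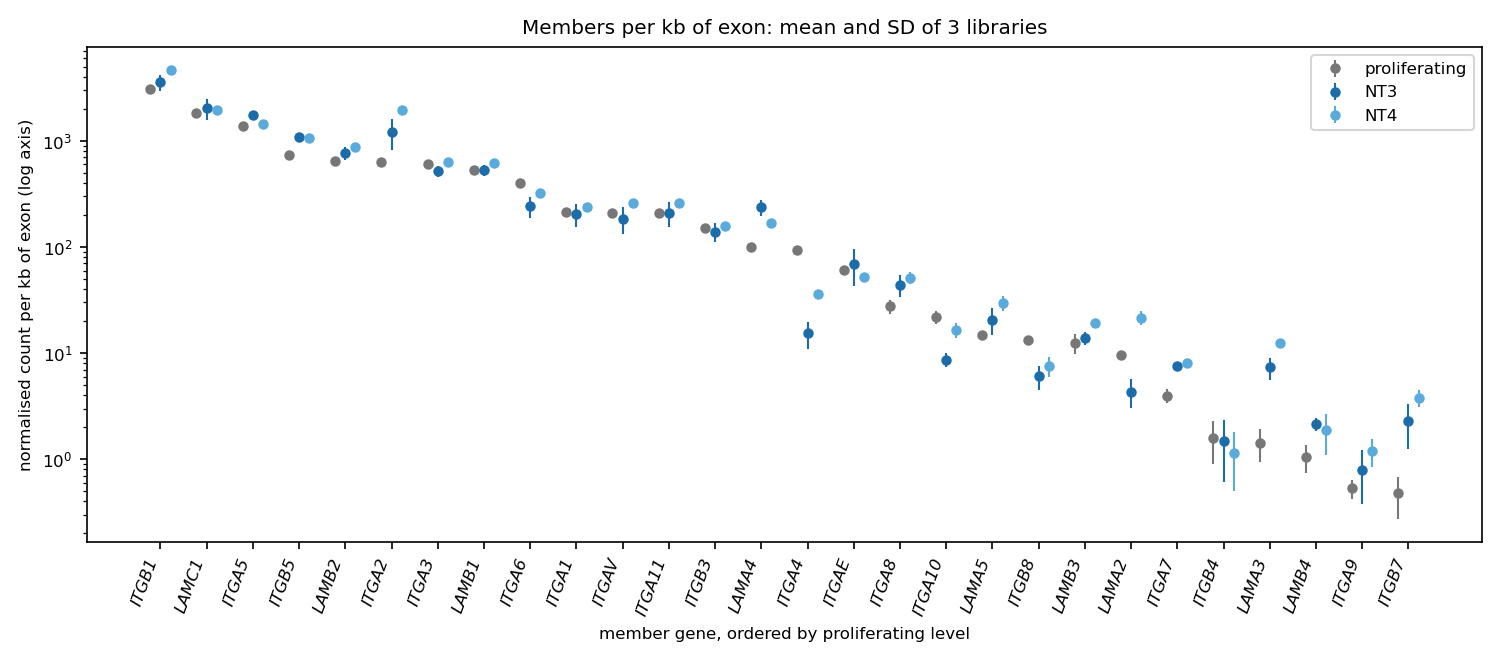
Normalised count per kb of exon (log axis) of 28 tested members in proliferating, NT3 and NT4 libraries; points are means and bars SD of 3 libraries. ITGB1 leads in all 3 groups, and LAMA3 and ITGB7 stand higher in NT3 and NT4 than in proliferating cells.

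The first comparison set irradiated cells with a non-targeting siRNA against proliferating cells, with a gene counted where NT3 and NT4 each differed from proliferating cells in the same direction (limma on log2 of the value plus 1, Benjamini-Hochberg adjusted p below 0.05 over 11579 genes). LAMA3, the alpha chain of epithelial laminins, rose by more than 4-fold in either control, beside rises of the collagen receptor subunit ITGA2 and the laminin receptor subunit ITGA7. ITGA4, the alpha subunit that binds VCAM1 and fibronectin, fell most, with falls of ITGA6, ITGA10 and ITGB8. In all 15 of 29 members were called, a share of 51.7% against 52.4% of all tested genes and so near the background, with 11 higher (24.9% of all genes) and 4 lower (27.4% of all genes). Against single controls, 18 members passed for NT3 (62.1%, all genes 67%) and 20 for NT4 (69%, all genes 63.3%). Of the 29, 12 had libraries that did not overlap between the arms (background 54.1%). With NT3 replicate 3 left out, 19 passed for NT3 (all genes 68.8%) and 20 did not overlap (63.4%). In bulk RNA, fewer cells expressing a gene and less RNA per cell cannot be told apart.

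Among collagen-binding subunits, ITGA2 read 4805, 5116 and 5184 in proliferating libraries, 10140.3, 12285 and 6201 in NT3 and 15339, 14022 and 16631 in NT4. All 6 control libraries were above all proliferating ones, with NT4 highest (log2 fold change 0.87 with SE 0.15, limma adjusted p 2.3e-05 for NT3; log2 fold change 1.60 with SE 0.15, limma adjusted p 4.03e-09 for NT4). ITGA10, at 142, 113.9 and 151 in proliferating cells, read 51.9, 63.1 and 47.3 in NT3 and 111.3, 84.7 and 113.5 in NT4. NT3 lay clear below, and the highest NT4 library (113.5) was just under the lowest proliferating library (113.9), with log2 fold changes of -1.31 and -0.40 (limma adjusted p 6.11e-07 and 0.0467). ITGA1 did not pass in either contrast, and ITGA11, a fibroblast collagen receptor subunit, passed in NT4 alone (0.29, limma adjusted p 0.0432), a result lost without any 1 of the 6 libraries compared.

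The laminin-binding subunits differed in direction. ITGA6, which forms laminin receptors with ITGB1 or ITGB4, read 2612, 2701 and 2647 in proliferating cells, 1679.7, 1939 and 1228 in NT3 and 2172, 2014 and 2228 in NT4, so every control library was lower. The fall was -0.74 (SE 0.11) in NT3 and -0.31 (SE 0.11) in NT4 on the log2 scale, with limma adjusted p 5.88e-06 and 0.02. ITGA7, a laminin receptor subunit best known from muscle, was low throughout, at 39.3, 29.8 and 38.97 in proliferating cells, 70.6, 73.8 and 61.9 in NT3 and 70.1, 69.1 and 80.8 in NT4. The groups did not overlap, and the rises were 0.92 and 1.01 (SE 0.18, limma adjusted p 0.000108 and 4.08e-05). ITGA3 passed in NT3 alone, where it was lower (-0.22, limma adjusted p 0.014), and did not pass without NT3 replicate 3 (-0.11, limma adjusted p 0.0894).

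Of the RGD-binding subunits, ITGA5 read 10045, 9973 and 10352 in proliferating cells, 13281, 13639.6 and 11838 in NT3 and 10329, 10908 and 10766 in NT4. It passed in NT3 (log2 fold change 0.35 with SE 0.052, limma adjusted p 4.42e-06) but not in NT4 (0.075, limma adjusted p 0.215). ITGAV, the shared partner of 4 beta subunits named above, read 3784, 4255 and 4204 in proliferating cells, 3926, 4338 and 2431 in NT3 and 5255, 4748 and 5229 in NT4, and passed only in NT4 (0.32, limma adjusted p 0.0371). That result was lost without proliferating replicate 1 or 3 or NT4 replicate 1 or 3. ITGA8, the receptor subunit for nephronectin, rose in both, from 170.3, 232 and 203 to 336, 391.6 and 239 in NT3 and 329, 427 and 367 in NT4 (0.66 and 0.89 on the log2 scale). ITGA4 was at 989.6, 1048 and 950.4 in proliferating cells against 183, 198 and 110.4 in NT3 and 371, 363 and 416 in NT4. The 3 groups were fully separate, NT3 being lowest (log2 fold change -2.64 with SE 0.14, limma adjusted p 6.53e-13; NT4 log2 fold change -1.38 with SE 0.14, limma adjusted p 3.22e-08). CERKL, on the opposite strand, overlaps 26.4% of the exon bases of ITGA4, and how strand was used in counting is not given in the sources used here.

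The beta subunits split as well. ITGB1 read 43096, 45761 and 45975 in proliferating cells, 56148, 57261 and 42091 in NT3 and 66701, 68443 and 67988 in NT4, so that NT4 was clear above and NT3 overlapped through replicate 3. It was called higher by 0.19 (limma adjusted p 0.0457) and 0.59 (limma adjusted p 2.22e-06), and the NT3 value was 0.34 without replicate 3. ITGB5, a vitronectin receptor subunit, rose from 4815 ± 46.5 (mean and SD, n = 3) to 7155 ± 464 in NT3 and 6874 ± 234 in NT4, by 0.57 and 0.51 on the log2 scale. ITGB8, which with ITGAV activates latent TGF-beta, fell from 189, 216 and 204 to 109.002, 100.7 and 64.3 in NT3 and 142, 98.3 and 102.9 in NT4 (log2 fold change -1.18 with SE 0.17, limma adjusted p 3.95e-06; NT4 log2 fold change -0.84 with SE 0.17, limma adjusted p 0.000258). No control library reached the proliferating range. ITGB3, its relative in the vitronectin receptor, read 988, 1078 and 1045 in proliferating cells, 1013, 1121 and 731 in NT3 and 1058, 1083 and 1061 in NT4, and was not called (-0.14 and 0.043, limma adjusted p 0.228 and 0.732). ITGB7 was called higher at values of 2.62, 1.06 and 2.66 in proliferating cells against 13.5, 12.1 and 4.85 in NT3 and 15.6, 14.6 and 20.2 in NT4, at most 21 reads in a library. Because 42.3% of its exon bases overlap ZNF740 on the opposite strand, its value is uncertain.

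The laminin chains that rose included LAMA3, LAMA4, LAMA5 and LAMB2, and none of the 10 tested chains was called lower against both controls. LAMA3 read 14.8, 28.7 and 18.6 in proliferating cells, 99.7, 134 and 84.9 in NT3 and 178, 168 and 192 in NT4 (log2 fold change 2.33 with SE 0.20, limma adjusted p 9.8e-10; NT4 log2 fold change 3.10 with SE 0.20, limma adjusted p 1.12e-11). Every control library was above every proliferating library, and NT4 was above NT3. LAMB3, the beta chain that assembles with LAMA3, was not called, at 48.9, 53.2 and 71.7 in proliferating cells against 70.6, 68.1 and 54.6 in NT3 and 79.0, 91.5 and 95.2 in NT4, and passed in NT4 alone (0.62, limma adjusted p 0.0249), a result lost without proliferating replicate 1 or 2 or NT4 replicate 2 or 3. LAMA4, the main alpha chain of mesenchymal cells, rose from 1246, 1207 and 1118 to 3151, 3117 and 2254 in NT3 and 2011, 2059 and 1931 in NT4 (log2 fold change 1.24 with SE 0.10, limma adjusted p 2e-10; NT4 log2 fold change 0.75 with SE 0.10, limma adjusted p 5.89e-07). Its partners LAMB1 and LAMC1 were not called: LAMB1 read 9965, 10276 and 9422, 10483, 10773 and 8573 and 11691, 11560.4 and 11349 in the 3 groups, and LAMC1 read 15194, 15771 and 15643, 19070.1, 19519 and 12858 and 15729.9, 16857 and 16483. LAMB1 passed as higher in NT4 alone, a result lost without proliferating replicate 3. LAMC1 passed in neither contrast, but was higher in NT3 once NT3 replicate 3 was left out (0.31, limma adjusted p 6.83e-07). LAMA2, the alpha chain of muscle and nerve laminins, moved in opposite directions by control. It read 279, 234 and 255 in proliferating cells, 113.2, 149.7 and 81.3 in NT3 and 653, 487 and 569 in NT4, with no overlap between any of the 3 groups (log2 fold change -1.19 with SE 0.15, limma adjusted p 5.29e-07; NT4 log2 fold change 1.14 with SE 0.15, limma adjusted p 1.09e-06).

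**Figure D3:**
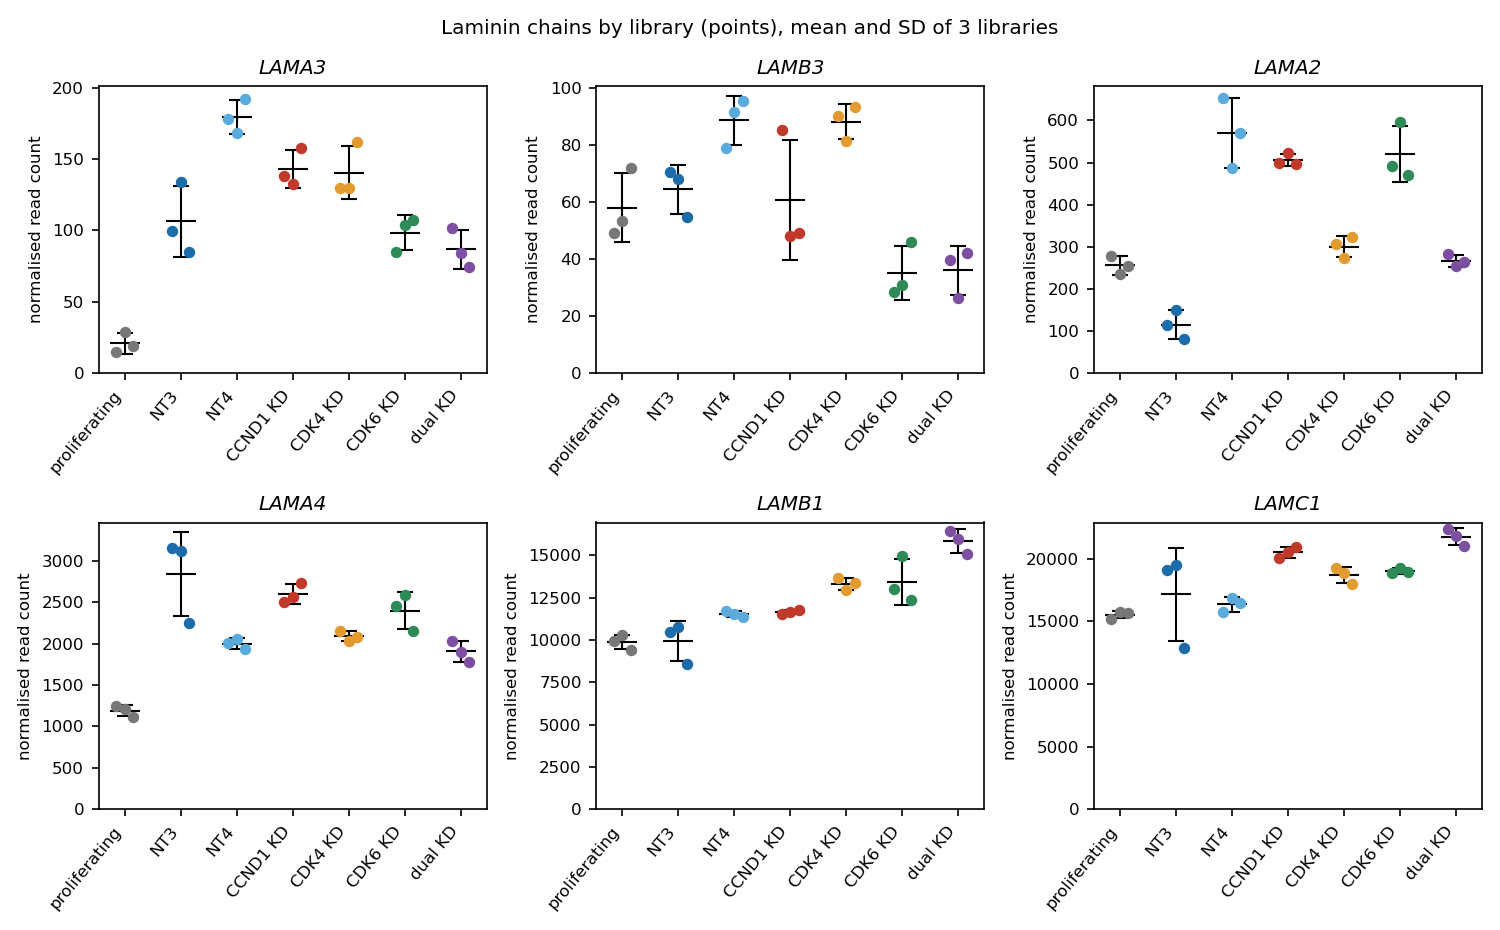
Normalised read count (y axis, from 0) of 6 laminin chains by group (x axis); points are libraries, and bars give the mean and SD of 3 libraries. LAMA3 is low in proliferating cells, LAMB3 is lowest in CDK6 and dual knockdown, and LAMA2 is lowest in NT3 and highest in NT4 by mean.

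The sequences upstream of 3 laminin chains are shown because LAMA3 was higher in both controls than in proliferating cells, its partner LAMB3 fell in knockdowns described later, and LAMC1 is the most abundant chain. They are the 250 bases before the RefSeq start on GRCh38.p14, 5′ to 3′ on the strand of the gene; 26 of the 37 members have an entry in that set, ITGB3 not among them. The LAMA3 stretch (chr18:23872770-23873019, plus strand) lies in an intron of the longest gene model (chr18:23689453-23956222, plus strand), and capitals mark 2 matches to TGANTCA, the core bound by AP-1. The LAMB3 stretch (chr1:209652426-209652675, minus strand) and the LAMC1 stretch (chr1:183023170-183023419, plus strand) lie outside annotated genes of these names, and capitals mark GGGCGG, the core bound by Sp1, on either strand, with 1 and 3 matches.
LAMA3: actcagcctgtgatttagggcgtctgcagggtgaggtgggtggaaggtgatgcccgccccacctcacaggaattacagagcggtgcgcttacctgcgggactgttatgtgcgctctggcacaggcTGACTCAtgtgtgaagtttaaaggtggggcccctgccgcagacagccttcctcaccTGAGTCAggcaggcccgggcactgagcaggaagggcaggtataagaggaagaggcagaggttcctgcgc
LAMB3: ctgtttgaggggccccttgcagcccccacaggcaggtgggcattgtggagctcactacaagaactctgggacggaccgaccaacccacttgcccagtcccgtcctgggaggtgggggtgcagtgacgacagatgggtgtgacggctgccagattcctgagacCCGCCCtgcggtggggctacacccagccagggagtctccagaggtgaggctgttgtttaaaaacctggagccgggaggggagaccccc
LAMC1: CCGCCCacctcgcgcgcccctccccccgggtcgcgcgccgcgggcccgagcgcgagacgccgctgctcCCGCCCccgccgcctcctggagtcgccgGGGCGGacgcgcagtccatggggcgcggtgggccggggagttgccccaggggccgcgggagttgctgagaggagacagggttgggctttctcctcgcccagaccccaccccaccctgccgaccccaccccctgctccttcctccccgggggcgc
Over all 35116 promoters of this length and both strands, 6.57% hold TGANTCA and 42.6% hold GGGCGG. Of the 26 member promoters, LAMA3 alone holds the first and 13 hold the second. GGAATG, the core bound by TEAD, was in 4 member promoters (ITGA5, ITGA10, ITGB1 and LAMA2) and in 11.9% of all, and a CArG box in 1 (ITGB6) and in 1.16% of all. No matches of different motifs overlap in the 3 stretches shown, and a match is a description of these letters, not a binding site.

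Of the 15 calls against proliferating cells, 10 held without any 1 library. The call of ITGB1 was lost without any 1 of the proliferating libraries or without NT3 replicate 1 or 2 (limma adjusted p up to 0.236), and those of LAMA5 and LAMB2 without NT3 replicate 1 or 2 (up to 0.127 and 0.055). ITGA6 was lost without proliferating replicate 2 or NT4 replicate 2 (up to 0.0761) and ITGA10 without proliferating replicate 1 or 3 or NT4 replicate 2 (up to 0.227). When NT3 replicate 3 was left out, 12 were higher and 4 lower (57.8% of all genes were then called), the same 15 plus ITGA11. Median centring of the libraries raised the share of all calls that were higher from 47.6% to 59.1% and moved the median log2 fold change of all genes from -0.029 to 0.089 for NT3 and from -0.017 to 0.090 for NT4, and members then stood at 12 higher and 2 lower, ITGA5 being added and ITGA6 and ITGA10 no longer called.

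The second comparison set the non-targeting siRNAs against each other, to measure how far the control groups differ. NT4 exceeded NT3 for most members that differed: 16 of 29 were called (55.2% against 27.8% of all genes), 13 higher (14.7% of all genes) and 3 lower (13.1%), and 18 did not overlap (34.9% of all genes). Leaving out NT3 replicate 3 gave 9 higher and 4 lower, of which 12 were shared, against 24.7% of all genes, and 20 that did not overlap (49.2%). LAMA2 differed most (log2 fold change 2.34 with SE 0.15, limma adjusted p 4.74e-10), and its 2.34 became 2.111 without that library. ITGA4 followed at 1.26 (SE 0.14, limma adjusted p 1.19e-06), then ITGA10 at 0.92, LAMA3 at 0.78 and ITGA2 at 0.74, with limma adjusted p 0.000373, 0.0058 and 0.000766. The ITGA2 value fell to 0.45 without NT3 replicate 3. Among the subunits lower in NT4 were LAMA4 (-0.49) and ITGA5 (-0.27). With the 3 runs of consecutive library codes in the column names as a block, over irradiated groups alone, LAMB2 was no longer called (limma adjusted p 0.0629). The calls of LAMB1, LAMB2 and ITGA11 ended without NT3 replicate 3 or any 1 NT4 library (limma adjusted p up to 0.145, 0.245 and 0.293) and that of LAMA5 without NT3 replicate 3 or NT4 replicate 1 (up to 0.0775). Those of ITGAV and ITGA6 held, at 0.30 and 0.24 without NT3 replicate 3 in place of 0.55 and 0.43, and LAMC1 was then called lower (-0.24, limma adjusted p 0.000187).

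The knockdowns were each set against NT3 and NT4 as separate controls, and a gene was counted where it passed against both in the same direction. The 4 knockdowns share the control libraries. The beta subunits ITGB3 and ITGB8 were the only members called higher in CCND1, CDK6 and dual knockdown, 2 of 29 (6.9%) where 401 of all 11579 tested genes (3.46%) were, and these comparisons share their 6 control libraries. Without NT3 replicate 3 the same 2 members and 5.06% of all genes were higher in all 3. Each of these 6 calls held in every alternative fit that was run and without any 1 library. Of the 6, ITGB8 in CCND1 knockdown alone had a log2 fold change over 1 against both controls. In CCND1 knockdown 4 of 29 members were called (13.8% against 11.6% of all genes), 4 higher (6.14% of all genes) and 0 lower (5.45%). In CDK4 knockdown 1 was called (3.45% against 4.67%), 0 higher (2.05%) and 1 lower (2.63%). In CDK6 knockdown 8 were called (27.6% against 21%), 7 higher (10.1%) and 1 lower (10.9%), and in dual knockdown 8 (27.6% against 23.6%), 5 higher (11.3%) and 3 lower (12.3%). Libraries did not overlap for 6, 5, 10 and 11 members, with backgrounds of 21.2%, 11.2%, 28.6% and 28.3%. The counts without NT3 replicate 3 were 8, 7, 14 and 14, with backgrounds of 27%, 16.9%, 35.2% and 37.6%. Single controls gave more: against NT3 and against NT4, 15 and 8 members passed in CCND1 knockdown (all genes 38.2% and 19.3%), 12 and 6 in CDK4 knockdown (25.6% and 11.6%), 17 and 11 in CDK6 knockdown (46.3% and 30.6%) and 18 and 15 in dual knockdown (44.6% and 36.7%). Against NT3, 13 of 15, 10 of 12, 14 of 17 and 13 of 18 of these were higher. Leaving out NT3 replicate 3 made these 8 of 11, 8 of 12, 11 of 16 and 12 of 19 (35.4%, 25.4%, 44% and 46.3% of all genes called). The shares of all genes called higher in these single contrasts are not given here. No lean particular to the members is therefore read from these directions.

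**Figure D4:**
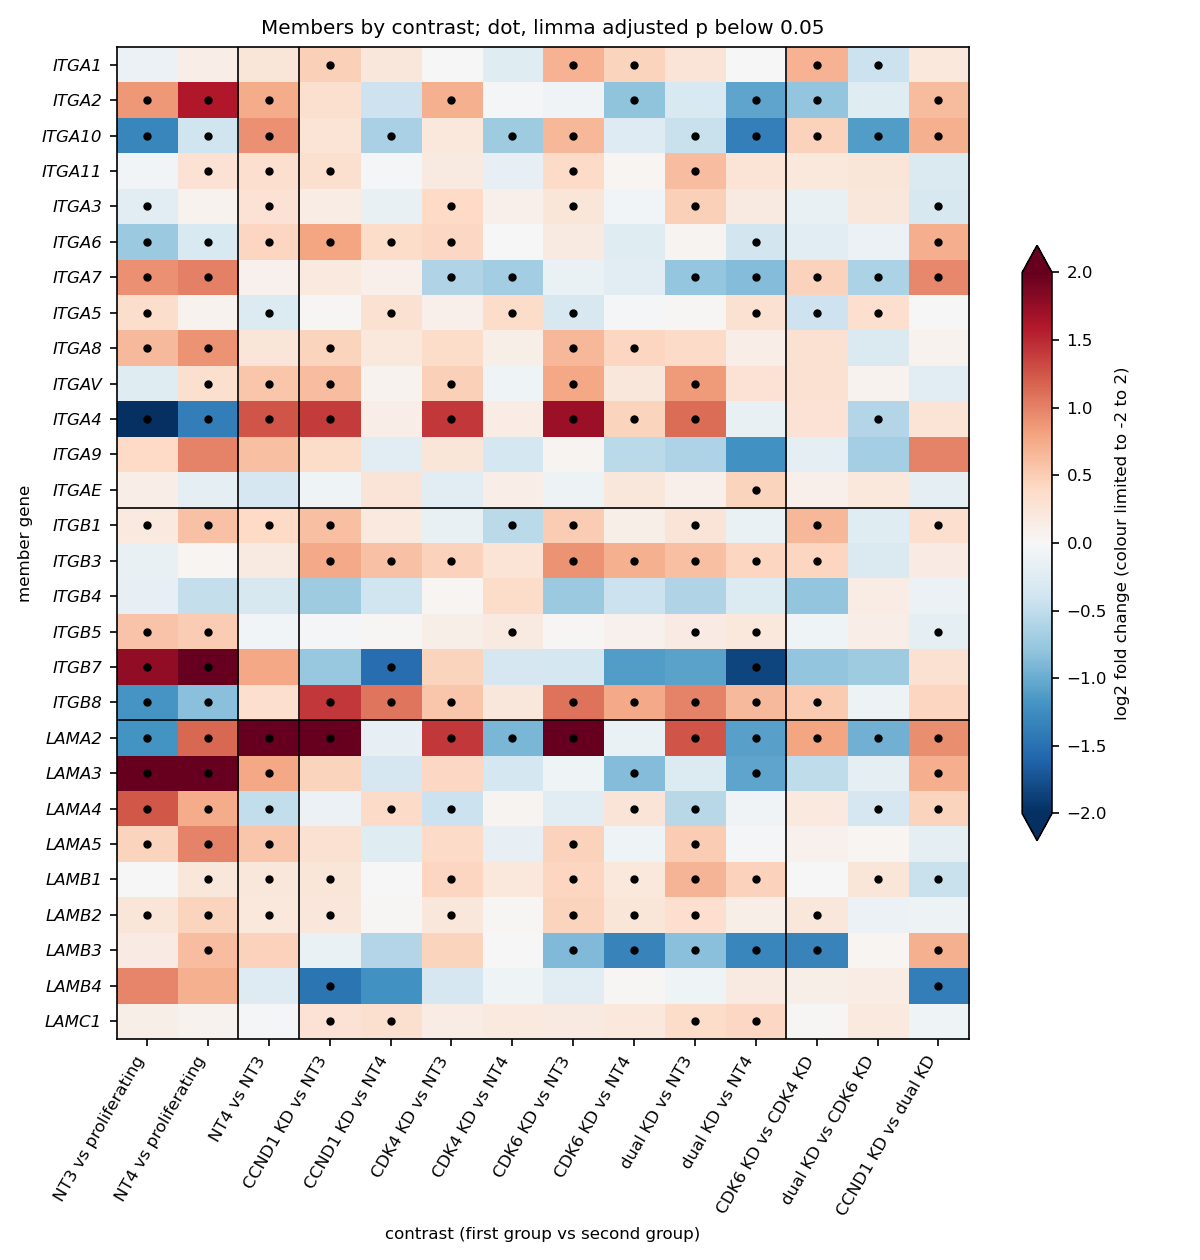
Log2 fold change (colour, limited to -2 to 2) of 28 tested members (rows: alpha subunits, beta subunits, laminin chains) in 14 contrasts (columns); a dot marks a limma adjusted p below 0.05. The rows of ITGB3 and ITGB8 carry dots and red in both columns of CCND1, CDK6 and dual knockdown, while LAMA2 and ITGA4 are red against NT3 and blue or pale against NT4 in most knockdown columns.

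ITGB3 (chr17:47253827-47313743, plus strand) read 1575, 1605 and 1612 in CCND1 knockdown, 1649, 1839 and 1785 in CDK6 knockdown and 1485, 1502 and 1314 in dual knockdown, against 1013, 1121 and 731 in NT3 and 1058, 1083 and 1061 in NT4. All 9 knockdown libraries were above all 6 control libraries and above the proliferating range. The log2 fold changes against NT3 and NT4 were 0.76 and 0.58 for CCND1 (limma adjusted p 5.97e-06 and 0.000303), 0.90 and 0.72 for CDK6 (limma adjusted p 3.81e-07 and 1.49e-05), and 0.61 and 0.42 for the dual knockdown (limma adjusted p 5.19e-05 and 0.00254), each with an SE of 0.10. CDK4 knockdown read 1369, 1312 and 1213, also above every control library, but passed against NT3 alone (0.46, limma adjusted p 0.0019; NT4 0.28, limma adjusted p 0.0818). Another gene model on the same strand shares 33.2% of the exon bases of ITGB3.

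ITGB8 (chr7:20330702-20415754, plus strand) read 223, 276 and 219 in CCND1 knockdown, 186, 188 and 198 in CDK6 knockdown and 164, 191 and 177 in dual knockdown, where NT3 had 109.002, 100.7 and 64.3 and NT4 142, 98.3 and 102.9. All 9 were above every control library. The CCND1 libraries also exceeded the proliferating values of 189, 216 and 204, and the CDK6 and dual libraries lay within or below them. CCND1 knockdown was highest (log2 fold change 1.41 with SE 0.17, limma adjusted p 2.26e-06 against NT3; log2 fold change 1.07 with SE 0.17, limma adjusted p 0.00014 against NT4). CDK6 knockdown followed at 1.09 and 0.75 and dual knockdown at 0.98 and 0.65, with limma adjusted p 2.99e-05, 0.00219, 9.12e-05 and 0.00595. CDK4 knockdown, at 146, 106.6 and 147, overlapped both controls and passed against NT3 alone (0.56, limma adjusted p 0.0215), a result lost without NT3 replicate 3 (0.33, limma adjusted p 0.129) or CDK4 replicate 1 or 3. The summed contractile genes stood at 45398 to 53374 in CCND1, CDK6 and dual knockdown and at 21371 to 29595 in NT3 and NT4. The sum was 39103 to 40095 in proliferating cells, where ITGB3 overlapped both controls. It was 25444 to 28302 in CDK4 knockdown, where ITGB3 was above every control library. ITGB8 had means of 203 in proliferating cells, 91.4 in NT3, 115 in NT4 and 133 in CDK4 knockdown. Its means were 240, 191 and 178 in CCND1, CDK6 and dual knockdown. ACTA2, CNN1, LMOD1, TAGLN and ACTG2 had higher means in CCND1, CDK6 and dual knockdown than in NT3 and NT4. Not every gene of the list followed the sum: SMTN had means of 2034 and 1878 in CDK6 and dual knockdown against 2463 and 2520 in NT3 and NT4. DES had means of 54.96 and 47.4 in CDK6 and dual knockdown against 55.4 and 58.25 in NT3 and NT4. MYH11, which defines smooth muscle, stayed at or below 1.29. The part of the contractile genes in these results was not tested.

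**Figure D5:**
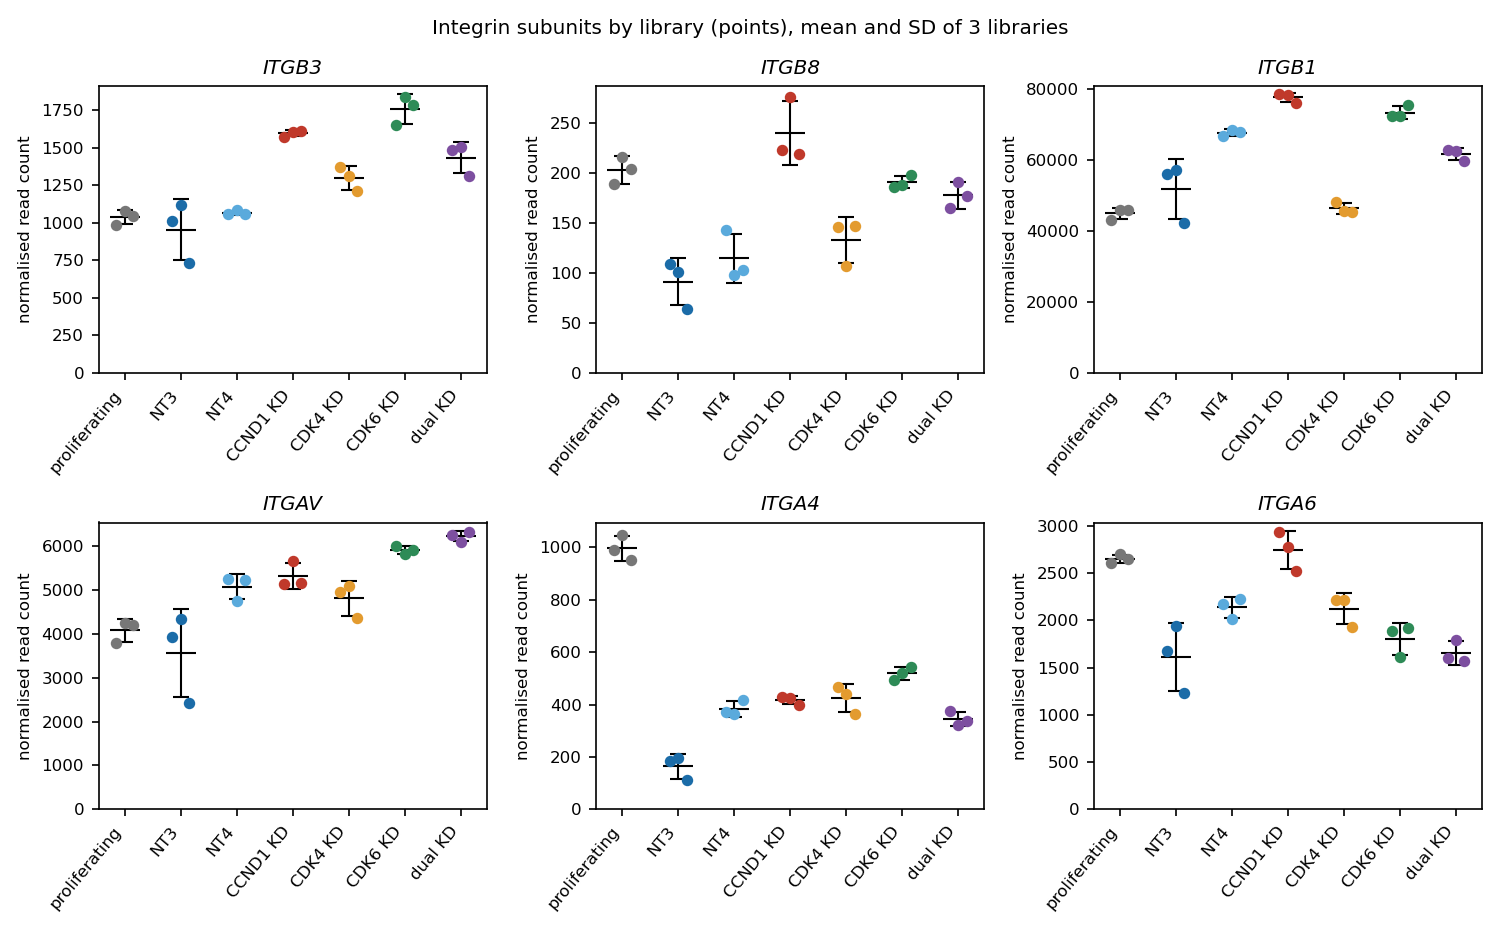
Normalised read count (y axis, from 0) of 6 integrin subunits by group (x axis); points are libraries, and bars give the mean and SD of 3 libraries. ITGB3 and ITGB8 stand above NT3 and NT4 in CCND1, CDK6 and dual knockdown, and ITGA4 is highest in proliferating cells and lowest in NT3.

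The partner of both, ITGAV, read 5146, 5660.0 and 5159 in CCND1 knockdown, 4964, 5103 and 4364 in CDK4 knockdown, 6002, 5821 and 5910.0 in CDK6 knockdown and 6267, 6102 and 6323 in dual knockdown. It passed against NT3 in all 4 (0.62, 0.47, 0.77 and 0.85) and against NT4 in none (0.068, -0.080, 0.22 and 0.30, limma adjusted p from 0.0757 to 0.771). The CDK6 and dual libraries were nevertheless all above the NT4 range of 5255, 4748 and 5229. Without NT3 replicate 3, the values against NT3 fell to 0.37, 0.22, 0.52 and 0.59 in the same order, and ITGAV was then called against both controls in CDK6 and dual knockdown. ITGB1 read 78473, 78354 and 76046 in CCND1 knockdown, 48237, 45524 and 45350.3 in CDK4 knockdown, 72262, 72364 and 75409 in CDK6 knockdown and 62769, 62452 and 59834 in dual knockdown. CCND1 and CDK6 libraries lay above all controls and CDK4 libraries below all but NT3 replicate 3, yet no ITGB1 call was made: against NT4 the values were 0.20 for CCND1 (limma adjusted p 0.104), 0.12 for CDK6 (limma adjusted p 0.321) and -0.55 for CDK4 (limma adjusted p 0.000102), and CDK4 missed against NT3 (-0.15, limma adjusted p 0.203). Without NT3 replicate 3, ITGB1 was called higher in CCND1 and CDK6 knockdown (0.45 and 0.37 against NT3) and lower in CDK4 knockdown (-0.29). The fold changes against NT4 do not involve that library, whereas the spread behind their p-values does. ITGA5 read 13257, 12989.8 and 13113 in CCND1, 13839, 13995 and 13566 in CDK4, 10189, 10588 and 10227 in CDK6 and 13509, 12997 and 12834 in dual knockdown. CDK6 knockdown was near NT4 and the other knockdowns near NT3, so no call was made against both.

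In CCND1 knockdown the other called members were ITGA6 and LAMC1. ITGA6 read 2934, 2776 and 2528, above all controls and overlapping the proliferating range (0.79 against NT3 and 0.36 against NT4, SE 0.11, limma adjusted p 1.42e-05 and 0.0283). LAMC1 read 20041, 20570.3 and 20925, also above all controls (0.28 and 0.33, limma adjusted p 0.0267 and 0.0219). LAMA4, at 2504, 2558 and 2734, overlapped NT3 and was not called. The call of ITGA6 ended with a block for the runs of library codes (0.36 against NT4, limma adjusted p 0.0581) and without NT4 replicate 1 or 2 or CCND1 replicate 1 or 2 (limma adjusted p up to 0.115), and that of LAMC1 without NT3 replicate 3 (0.088, limma adjusted p 0.125), NT4 replicate 1 or 3 or CCND1 replicate 2 or 3. With NT3 replicate 3 left out, 5 members were called higher (16.3% of all genes), 3 of them shared: ITGA6, ITGB3 and ITGB8, with ITGA1 and ITGB1 added.

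CDK4 knockdown changed 1 member, ITGA7, which read 43.6, 53.8 and 38.3, below all 6 control libraries (log2 fold change -0.60 with SE 0.18, limma adjusted p 0.0161 against NT3; log2 fold change -0.70 with SE 0.18, limma adjusted p 0.0124 against NT4). This call was lost without NT4 replicate 3 (log2 fold change -0.63, limma adjusted p 0.0623), CDK4 replicate 1 (log2 fold change -0.58, limma adjusted p 0.0501) or CDK4 replicate 3 (log2 fold change -0.49, limma adjusted p 0.0755). Without NT3 replicate 3 the count rose to 2 higher (ITGB3 and LAMB1) and 3 lower (ITGA1, ITGA7 and ITGB1), against 7.96% of all genes. The chains LAMA4, LAMB1 and LAMC1 were not called. LAMA4 read 2148, 2029.9 and 2081, LAMB1 13668, 12962 and 13349 and LAMC1 19270.0, 18878 and 17967, where the LAMB1 libraries were above all controls and those of the other two overlapped them. LAMA2 again depended on the control, at 306, 272 and 322, above NT3 (1.42, limma adjusted p 6.88e-07) and below NT4 (-0.92, limma adjusted p 0.000281).

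In CDK6 knockdown 7 members were higher and 1, LAMB3, was lower. LAMB3 (chr1:209614870-209652425, minus strand) read 28.5, 30.7 and 46.0, under every control library (log2 fold change -0.88 with SE 0.23, limma adjusted p 0.00383 against NT3; log2 fold change -1.34 with SE 0.23, limma adjusted p 0.000145 against NT4). Its partner LAMA3 was not called: it read 84.5, 103.4 and 107.3, lower than NT4 (-0.87, limma adjusted p 0.00198) but did not pass against NT3. The collagen receptor subunit ITGA1 read 5823, 6185 and 5902 against 4271, 4406 and 2692 in NT3 and 4471, 4259.6 and 4432 in NT4 (0.69 and 0.44, limma adjusted p 5.23e-05 and 0.00537). It was above all controls, and the NT3 value was 0.46 without NT3 replicate 3. ITGA4 read 495, 522 and 542, above the controls and below the proliferating libraries (1.70 and 0.44, limma adjusted p 6.22e-09 and 0.0243). ITGA8, at 455, 562 and 493, was likewise above all controls (0.67 and 0.43, limma adjusted p 0.00192 and 0.0479). Of the chains that assemble together, LAMB1 read 13026, 14934 and 12334, above all controls, while LAMA4 at 2449, 2590.4 and 2151 and LAMC1 at 18833, 19282 and 18921 overlapped them and were not called. LAMB1 and the beta chain LAMB2 were higher by 0.22 and 0.25 against NT4, with limma adjusted p 0.0333 and 0.0132. Of the 8 calls, 5 held without any 1 library. ITGA4 was lost without NT4 replicate 1 or 2 or CDK6 replicate 2 or 3 (limma adjusted p up to 0.081), ITGA8 without NT4 replicate 1 or 3 or any 1 CDK6 library (up to 0.186), and LAMB1 without any 1 NT4 library or CDK6 replicate 1 or 2 (up to 0.209). All 8 were kept without NT3 replicate 3 and ITGAV and ITGB1 (higher) and ITGA2 (lower) were added, against 26.3% of all genes.

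Dual knockdown raised 5 members and lowered 3. LAMB1, the beta chain shared by most laminins of fibroblasts, read 16452, 15991 and 15075, higher than in any other group (log2 fold change 0.68 with SE 0.075, limma adjusted p 2.21e-07 against NT3; log2 fold change 0.46 with SE 0.075, limma adjusted p 5.4e-05 against NT4). Its gamma partner LAMC1 (chr1:183023420-183145592, plus strand) read 22396, 21779 and 21048, above every other library of the study (0.37 and 0.41, SE 0.10, limma adjusted p 0.00426 and 0.0023), with 0.17 against NT3 without its replicate 3. The alpha chain LAMA4 did not rise with them, at 2031, 1901 and 1782, and was lower than NT3 (-0.56, limma adjusted p 5.9e-05) and near NT4 (-0.072, limma adjusted p 0.587). LAMB3 read 39.7, 26.2 and 42.0, under every control library (-0.84 and -1.30, limma adjusted p 0.00544 and 0.000147). ITGA7 read 46.4, 42.6 and 32.0, overlapping the proliferating libraries (-0.77 and -0.86, limma adjusted p 0.00139 and 0.000662). ITGA10 read 36.4, 38.2 and 43.0, the lowest of all groups (-0.45 and -1.36, limma adjusted p 0.0364 and 1.77e-06). ITGB5 was higher by 0.16 and 0.22. The calls of ITGB5 and ITGA10 were lost without some libraries, ITGB5 without NT3 replicate 3 (log2 fold change 0.11, limma adjusted p 0.0535) or dual replicate 1 (log2 fold change 0.12, limma adjusted p 0.109) and ITGA10 without NT3 replicate 1 or 2 or dual replicate 1 or 2 (limma adjusted p up to 0.153). A block for the runs of library codes also ended the ITGA10 call (-0.45 against NT3, limma adjusted p 0.0541). Without NT3 replicate 3, 9 members were higher and 5 lower, 7 of them shared, against 30.6% of all genes.

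Direct contrasts of knockdowns take their fold changes from no control library. The spread behind their p-values is estimated over all 21 libraries, NT3 replicate 3 among them. Their calls and misses thus depend on the controls too. CDK6 against CDK4 knockdown differed at 11 members (37.9% against 34.8% of all genes), 8 higher (17.5%) and 3 lower (17.3%), and 22 did not overlap (51.7% of all genes). ITGB1 was higher with CDK6 siRNA by 0.66 (SE 0.083, limma adjusted p 1.99e-06) and its partner ITGA1 by 0.69 (limma adjusted p 6.61e-05), CDK4 libraries of ITGA1 reading 4079, 3559 and 3466. Another collagen receptor alpha subunit, ITGA2, went the other way, at 15519.6, 16899 and 13125 in CDK4 and 8485, 8962 and 8841 in CDK6 knockdown (log2 fold change -0.79 with SE 0.15, limma adjusted p 0.00024). The collagen-binding subunit ITGA10 was called higher (0.46). ITGA11 was not called (0.20), though its CDK6 libraries were all above its CDK4 libraries. LAMB3, at 90.0, 81.2 and 93.2 in CDK4 knockdown, differed most (log2 fold change -1.33 with SE 0.23, limma adjusted p 0.000109). LAMA2, at 493, 595 and 471 in CDK6 knockdown, was higher by 0.79 (limma adjusted p 0.000338). ITGB3 and ITGB8 were higher by 0.44 and 0.53 (limma adjusted p 0.0019 and 0.0208), and ITGA5 was lower (-0.42, limma adjusted p 1.87e-06). Of these 11 calls 7 held without any 1 library. ITGB8 was lost without CDK4 replicate 2 or CDK6 replicate 3 (limma adjusted p up to 0.134), ITGA7 without any of the 6 libraries but CDK4 replicate 2 (up to 0.189), and ITGA10 and LAMB2 without CDK4 replicate 1 or 2 or CDK6 replicate 2 or 3 (up to 0.163 and 0.0582). The run block ended the calls of ITGA7 (0.47, limma adjusted p 0.0564) and ITGA10 (0.46, limma adjusted p 0.0591). Among the calls it added was LAMA3, lower by -0.51 on the log2 scale (limma adjusted p 0.0244). LAMA3 libraries did not overlap, and it was also called lower by edgeR, by DESeq2 and in the fit of the compared groups alone.

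Dual against CDK6 knockdown differed at 8 members (27.6% against 13% of all genes), 2 higher (6.05%) and 6 lower (6.94%), and 16 did not overlap (36.2% of all genes). The 6 lower were ITGA10 (log2 fold change -1.11 with SE 0.17, limma adjusted p 9.72e-05), LAMA2 (log2 fold change -0.96 with SE 0.15, limma adjusted p 0.000158), ITGA7, ITGA4, ITGA1 and LAMA4. LAMA2 read 281, 253 and 264 in dual knockdown, close to the CDK4 libraries. ITGA4 read 375, 322 and 337 (-0.59, limma adjusted p 0.00795) and ITGA1 4495, 4456 and 4303 (-0.43, limma adjusted p 0.0144). The fibronectin receptor subunit ITGA5 and the laminin chain LAMB1 were higher, by 0.34 and 0.24 (limma adjusted p 9.34e-05 and 0.0355). The calls of ITGA10, LAMA2, ITGA4 and ITGA5 held without any 1 library, and the other 4 did not. ITGA1 was lost without CDK6 replicate 2 or dual replicate 3 (limma adjusted p up to 0.0558), ITGA7 also without CDK6 replicate 3 (up to 0.128), LAMA4 without CDK6 replicate 1 or 2 or dual replicate 2 or 3 (up to 0.117), and LAMB1 without CDK6 replicate 1 or 3 or dual replicate 1 or 2 (up to 0.192). ITGB3 and ITGB8 were not called in this contrast (-0.29 and -0.11, SE 0.10 and 0.17, limma adjusted p 0.0609 and 0.749), which does not show that they were equal. The ITGB3 libraries did not overlap, and ITGB3 was called lower by edgeR, by DESeq2, under quantile normalisation and in the fit of the compared groups alone.

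CCND1 against dual knockdown asks whether removing the cyclin leaves these genes where removing both kinases does. It differed at 13 members (44.8% against 20.3% of all genes), 9 higher in CCND1 knockdown (11.2%) and 4 lower (9.12%), and 19 did not overlap (40.9% of all genes). The laminin receptor subunits ITGA7, at 69.1, 74.7 and 93.2 in CCND1 knockdown, and ITGA6 were higher (log2 fold change 0.96 with SE 0.18, limma adjusted p 0.000471 for ITGA7; log2 fold change 0.73 with SE 0.11, limma adjusted p 6.46e-05 for ITGA6). LAMA2, at 499, 523 and 498, was higher by 0.93, LAMA3 by 0.72, ITGA10 by 0.71 and ITGA2 by 0.63, with limma adjusted p 0.000132, 0.0117, 0.00418 and 0.0037. LAMB3 was higher by 0.72, with CCND1 libraries at 85.1, 48.0 and 49.1, and the call was lost without CCND1 replicate 1 (log2 fold change 0.45, limma adjusted p 0.214) or dual replicate 2 (log2 fold change 0.51, limma adjusted p 0.166). LAMB1, at 11517, 11658 and 11789, was lower (log2 fold change -0.44 with SE 0.075, limma adjusted p 0.000181), as were ITGA3 (-0.33) and ITGB5 (-0.20). LAMB4 was also called lower (-1.38, limma adjusted p 0.0496) at values of 2.13, 5.33 and 8.83 against 14.3, 7.64 and 25.03, a call lost without CCND1 replicate 1 or 2 or dual replicate 1 or 3 (limma adjusted p up to 0.243) or with the run block (0.0762). LAMA3 was lost without CCND1 replicate 3 or dual replicate 3 (up to 0.0651) and ITGB5 without dual replicate 1 (0.0736). ITGB3 and ITGB8 were not called (0.16 and 0.42, limma adjusted p 0.31 and 0.0922). The libraries of both did not overlap, and ITGB8 was called higher by DESeq2 and in the fit of the compared groups alone.

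Genes that work with these receptors were taken from 4 lists, and a gene was counted by the same rules as the members. Their counts are read against the shares of all genes: 24.9% higher and 27.4% lower in the controls against proliferating cells, 6.14% and 5.45% in CCND1, 2.05% and 2.63% in CDK4, 10.1% and 10.9% in CDK6, and 11.3% and 12.3% in dual knockdown. Those shares without NT3 replicate 3 were 27.3% and 30.5%, 8.86% and 7.49%, 3.51% and 4.46%, 13.1% and 13.2%, and 15.4% and 15.2%. Of 25 tested integrin ligands, 9 were higher and 6 lower in the controls against proliferating cells, led by SPP1 (osteopontin), ICAM1 and VCAM1, a ligand of ITGA4, at 3.82, 2.17 and 1.99 in NT4 (limma adjusted p 5.06e-11, 1.08e-12 and 9.69e-09). Ligands numbered 5 higher and 2 lower in CCND1, 1 and 1 in CDK4, 3 and 6 in CDK6 and 8 and 2 in dual knockdown. The ligand counts without that library were again 9 and 6 in the controls and 6 and 2, 3 and 1, 4 and 6, and 10 and 3 in the knockdowns. EDIL3, an RGD protein bound by ITGAV receptors, was higher in CCND1, CDK6 and dual knockdown, by 0.55, 0.94 and 0.85 against NT4 (limma adjusted p 7.84e-06, 2.34e-09 and 4.34e-09). Of 19 basement membrane partners of laminin, 6 were higher and 7 lower in the controls against proliferating cells, and 1 and 1, 0 and 1, 1 and 2, and 5 and 4 in CCND1, CDK4, CDK6 and dual knockdown. These became 7 and 7, 3 and 1, 0 and 2, 3 and 2, and 6 and 5 without that library. SMOC1, a basement membrane glycoprotein, was lower in CCND1, CDK6 and dual knockdown (-0.54, -0.94 and -1.37 against NT4, limma adjusted p 9.58e-05, 3.02e-08 and 5.86e-11).

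Of the 36 adaptors and kinases of integrin adhesions, 17 were lower and 6 higher in the controls against proliferating cells, with median log2 fold changes of -0.30 (NT3) and -0.16 (NT4) where all genes had -0.029 and -0.017. FLNA, an actin crosslinker, and TGFB1I1, a paxillin relative, were lower (-1.13 and -1.13 in NT4, limma adjusted p 3.37e-07 and 5.24e-12). In knockdowns they numbered 12 higher and 1 lower for CCND1, 1 and 2 for CDK4, 16 and 3 for CDK6 and 13 and 2 for the dual. Leaving out NT3 replicate 3 gave 8 higher and 18 lower in the controls, and 16 and 1, 5 and 3, 18 and 4, and 16 and 6 in the knockdowns. Their medians against NT4 were 0.16, -0.031, 0.16 and 0.17, with those of all genes between -0.011 and -0.0019. LIMS2, which links integrins to actin through ILK, and NEDD9, a scaffold of focal adhesions, were higher in CCND1, CDK6 and dual knockdown (0.49, 0.70 and 0.54 for LIMS2 and 0.66, 0.94 and 0.95 for NEDD9, against NT4, limma adjusted p from 1.14e-06 to 0.00305). Of 16 membrane partners, 8 were higher and 5 lower in the controls against proliferating cells, and 4 and 4, 0 and 2, 6 and 4, and 5 and 6 in CCND1, CDK4, CDK6 and dual knockdown. The membrane partners stood at 8 and 5, 5 and 3, 0 and 2, 6 and 4, and 8 and 5 without that library. SLC3A2, whose product binds integrin beta tails, was lower in CCND1 and CDK6 knockdown (-0.46 and -0.73 against NT4), and SDC3, a heparan sulfate coreceptor, was higher in CDK6 and dual knockdown (0.63 and 0.76).

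The members near the detection limit complete the set. ITGA9, ITGB4, ITGB7 and LAMB4 passed the filter with group means under 20, and neither ITGA9 nor ITGB4 was called in any comparison. ITGB4, the partner of ITGA6 in hemidesmosomes, read 13.1, 13.8 and 5.31 in proliferating cells and 8.90, 2.92 and 11.5 in NT4. Among the untested, ITGAM had 0 in the 3 proliferating libraries, 6.23, 4.97 and 14.6 in NT3, 6.68, 5.84 and 6.73 in NT4 and 10.4, 6.09 and 7.85 in CDK4 knockdown, against 1.02, 1.86 and 0 in CDK6 and 0, 0 and 4.00 in dual knockdown. At no more than 12 reads, such values carry large counting error. Members that passed the filter and were called in none of the 9 comparisons were ITGA9, ITGAE and ITGB4.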

How the data were processed

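Poly(A) RNA of 21 IMR90 libraries was analysed from 1 deposited table of 16383 genes. Per the submitters' processing notes, reads were checked with FastQC 0.74 and MultiQC and processed with Trimmomatic 0.38.1, HISAT2 2.2.1, featureCounts 2.0.3 and DESeq2 2.11.40.8, with hg38 (GRCh38) as the build. Whether counting used strand is not given in the sources used here. Per the file headers the deposited values carry a group and a library code and no replicate number, so replicate numbers follow column order and only name libraries. The deposited values are a signal: normalised counts, that is reads divided by a size factor for each library. Multiplying each library back gave whole reads for 100% of values (tolerance 0.01), which gave the library totals and the reads for the count tests. Counting error covers reads only.

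Values were taken as log2(value + 1), so fold changes of low genes are understated. Genes with at least 10 in at least 3 libraries were fitted with limma 3.58.1 (R 4.3.3) with 7 group means and a trended prior, and two-sided p-values were adjusted by Benjamini-Hochberg over 11579 genes per contrast at 0.05. Calls against 2 controls required both contrasts in 1 direction. Before use, the fit was run on simulated data for the same 11579 genes, for CDK6 knockdown against both controls alone. No outcome of that run is given here, so nothing on error rates is drawn from it. Values per library were given for up to 6 members a comparison with the largest fold change among called members whose libraries did not overlap, and for ITGB1, ITGAV, ITGA5, ITGB3, LAMA4, LAMB1 and LAMC1 in every group. The values of 1 tested member, which stays in the counts, are not reported here. Other members named were chosen after their values were seen. Members and lists were chosen with earlier results of these data known. Exon lengths and overlaps came from GENCODE on GRCh38 and promoters from RefSeq on GRCh38.p14.

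Alternatives were other pseudocounts (0.1 and 10), filters (none, or a mean of at least 100) and scalings, edgeR 4.0.16 and DESeq2 1.42.0 on recovered reads, the compared groups alone, a pooled control, a log2 fold change over 1 and leaving out each library. The edgeR count test called 6116 genes for the controls against proliferating cells, 3227 for NT4 against NT3, and 1383, 578, 2510 and 2762 for CCND1, CDK4, CDK6 and dual knockdown, where limma called 6065, 3216, 1342, 541, 2431 and 2733.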

Additional observations from a re-analysis of the deposited data

How the results depend on the processing

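Counts of members called by limma kept within 1.5 times of the value given for both pseudocounts, without a filter, with median centring and with edgeR, in all 9 comparisons. A required log2 fold change over 1 left 4 members for the controls against proliferating cells, 2 for NT4 against NT3, 1 for CCND1, 0 for CDK4, 0 for CDK6 and 0 for dual knockdown, and 1 in each contrast between knockdowns; here the size, not the p, set the count. Fits of the compared groups alone, which have fewer libraries, gave lower counts of 10 for the controls against proliferating cells and 5 for NT4 against NT3. Lower counts also came for knockdowns against both controls, with 2 for CCND1, 3 for CDK6 and 5 for dual knockdown. They gave higher counts for CDK6 against CDK4 (18, where the fit of all groups gave 11) and for dual against CDK6 knockdown (14, where it gave 8). Quantile normalisation gave 2 for CCND1 and 5 for dual knockdown, a mean of at least 100 gave 0 for CDK4 (ITGA7 being no longer tested) and 5 for dual knockdown, and DESeq2 gave 3 for CDK4 knockdown. With the mean of NT3 and NT4 as 1 control, and so 1 contrast to pass in place of 2, 12, 8, 14 and 18 members were called in CCND1, CDK4, CDK6 and dual knockdown. The alternative counts in this section are given without the share of all genes called by the same fit. They show how far the member counts depend on the settings, and nothing particular to the members is read from them. Leaving out 1 library gave 11 to 16 for the controls against proliferating cells, 12 to 19 for NT4 against NT3, 2 to 5 for CCND1, 0 to 5 for CDK4, 5 to 11 for CDK6 and 7 to 14 for dual knockdown, 7 to 10 for CDK6 against CDK4, 5 to 7 for dual against CDK6 and 11 to 12 for CCND1 against dual knockdown. Of 2937 alternative values for the 188 called gene results, 2651 kept direction and call, 285 lost the call and 1 reversed: ITGB1 in dual knockdown against NT3 was -0.097 under quantile normalisation. Except where fewer genes entered, the cause was not tested. No paired analysis was possible because the columns carry no replicate number from the labels, and runs of library codes are not such numbers. A block for the 3 runs, added after seeing the data, changed the counts to 15, 3, 1, 8 and 7 (NT4 against NT3, then CCND1, CDK4, CDK6 and dual knockdown) and to 11, 8 and 12 in the contrasts between knockdowns. Reads limit members under about 20 normalised counts.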
